A study of Mus musculus with 16 samples.

Results

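Circadian clock genes were followed in whole brain RNA of 16 mice, to see how they varied from mouse to mouse and between genotypes. The 10 genes were Per1, Per2, Per3, Dbp, Ciart, Nr1d1, Nr1d2, Clock, Npas2 and Bhlhe41, chosen by name, and all 10 were found by their Ensembl identifiers among the 55404 genes of the deposited table. All 10 were among the 23244 genes with enough signal to be tested. The 8 Tecpr2 ki/ki mice were homozygous for the Tecpr2 L1152fs knock-in, a frameshift that the study made by genome editing in C57BL/6J mice, and the 8 wt/wt mice carried the wild type gene. All were untreated males of 5 months, kept under an alternating light and dark cycle with free access to food. The hour at which the brains were taken is not given in the sources used here. Each mouse gave 1 library of total RNA from the whole brain, so that the suprachiasmatic nucleus, the brain's pacemaker, made up only a small portion of each sample.

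The molecular clock is a feedback loop of transcription. CLOCK, or its relative NPAS2, pairs with BMAL1, the product of Arntl. The pair binds E-boxes of Per1, Per2, Per3, Ciart, Nr1d1, Nr1d2, Dbp and Bhlhe41. Except for DBP, which is an activator, their products in turn hold back the pair or its targets. REV-ERBα and REV-ERBβ, the products of Nr1d1 and Nr1d2, repress Arntl, Npas2 and, more weakly, Clock, so that these transcripts peak at about the opposite time of day to Dbp and Nr1d1 in most mouse tissues.

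Promoter windows from RefSeq on GRCm38.p6, from 250 bases before the transcription start to 50 bases after it, were found for 9 of the 10 genes. They are shown for Ciart and Per1, whose values spread widely between mice, for Per3, and for Bhlhe41, the only gene of the 10 whose values did not overlap between the genotypes. Capitals mark an E-box (CACGTG) or a D-box (TTATGTAA or TTATGCAA, the letters that DBP and its relatives bind), searched on both strands. The windows lie at chr3:95882179-95882478 on the minus strand for Ciart, chr11:69098699-69098998 on the plus strand for Per1, chr4:151044616-151044915 on the minus strand for Per3 and chr6:145865371-145865670 on the minus strand for Bhlhe41.
Ciart: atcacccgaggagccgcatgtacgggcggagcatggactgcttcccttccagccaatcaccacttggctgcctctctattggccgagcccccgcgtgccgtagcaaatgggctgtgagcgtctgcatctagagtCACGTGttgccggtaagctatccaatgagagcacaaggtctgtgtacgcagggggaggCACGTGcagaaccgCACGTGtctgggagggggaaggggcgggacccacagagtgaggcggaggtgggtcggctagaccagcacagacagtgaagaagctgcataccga
Per1: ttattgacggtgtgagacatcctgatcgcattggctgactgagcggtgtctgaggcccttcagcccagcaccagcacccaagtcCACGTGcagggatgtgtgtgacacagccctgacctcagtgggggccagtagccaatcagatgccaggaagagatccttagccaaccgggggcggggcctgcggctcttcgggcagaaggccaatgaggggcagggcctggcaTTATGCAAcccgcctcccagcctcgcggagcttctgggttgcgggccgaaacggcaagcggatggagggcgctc
Per3: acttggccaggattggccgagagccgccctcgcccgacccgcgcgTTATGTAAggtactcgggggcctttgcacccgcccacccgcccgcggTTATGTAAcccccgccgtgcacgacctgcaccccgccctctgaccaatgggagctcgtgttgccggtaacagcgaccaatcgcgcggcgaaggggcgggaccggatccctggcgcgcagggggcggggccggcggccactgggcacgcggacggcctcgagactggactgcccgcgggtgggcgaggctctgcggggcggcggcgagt
Bhlhe41: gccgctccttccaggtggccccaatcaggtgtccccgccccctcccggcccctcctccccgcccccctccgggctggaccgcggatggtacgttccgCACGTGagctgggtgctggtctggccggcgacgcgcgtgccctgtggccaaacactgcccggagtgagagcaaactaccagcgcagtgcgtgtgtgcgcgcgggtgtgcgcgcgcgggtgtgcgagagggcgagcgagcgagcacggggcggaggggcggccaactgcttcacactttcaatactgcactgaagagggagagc
The Ciart window held 3 E-boxes, whose first bases lay at -116, -58 and -44 from the start. Per1 had an E-box at -166 and a D-box at -24, Per3 had D-boxes at -205 and -158, and Bhlhe41 had an E-box at -153. Among all 32851 windows of this length, 7.15% held the E-box and 1.66% the D-box. The 9 genes had 12 windows, of which 3 (25%) held an E-box and 2 (16.7%) a D-box. These lay in 3 and 2 of the 9 genes. A further window at another start of Per1 and the windows of Dbp, Nr1d2, Clock and Npas2 held none of the letters searched. A related element, CACGTT, was found in the Nr1d1 window at -28 and in 4.68% of all windows. The letters TAGGTCA or TGGGTCA, core letters of the REV-ERB element (6.45% of all windows), and TGACGTCA, the cyclic AMP response element (1.79%), were in none of the 9 genes' windows. These matches describe the letters of the windows only.

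As a check of the labels, the value of Tecpr2 lay between 274 and 320 (median 298.5) in Tecpr2 ki/ki mice and between 928 and 1002 (median 968.5) in wt/wt mice. All values are the linear normalized values that the authors deposited, rounded to whole numbers, and they have no unit of their own. They summed to between 11964284 and 12252324 per mouse, and the depth estimated from the steps between low values was 9.24 to 15.4 megareads on genes. Of 5 pituitary genes, Gh, Prl and Lhb were listed at 0 in every mouse, Cga was at 1 in 1 mouse and at 0 in the others, and Pomc, which the hypothalamus also expresses, ranged from 6 to 19. The summed values of 4 pineal genes were at most 14. Summed astrocyte markers were 56783 to 59109 in Tecpr2 ki/ki and 53180 to 56694 in wt/wt mice, and did not overlap. Most of each sum came from 1 of the 6 markers, the glutamate transporter Slc1a2, with a mean of 44629. On its own Slc1a2 overlapped, from 44657 to 46722 in Tecpr2 ki/ki and from 42299 to 45369 in wt/wt mice. In RNA of a whole tissue, fewer cells of a type and less RNA per cell cannot be told apart.

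Levels were compared between genes per kilobase of annotated exon. This length joins all annotated exons of a gene, whichever transcripts are present. The order of the genes thus depends on the annotation too, and equally in every mouse. Nr1d2 (mean 260.2 per kilobase ± 12.6, SD, n = 16) and Nr1d1 (258.9 ± 11.8) stood highest. Per1 (159.8 ± 14.4), whose product is a repressor of the CLOCK and BMAL1 pair, and Clock (148.9 ± 3.49) came next. They were followed by Npas2 (101 ± 5.87), Per2 (70.7 ± 5.98), Bhlhe41 (67.0 ± 3.66), Per3 (64.8 ± 4.80), Dbp (51.1 ± 6.81) and Ciart (42.6 ± 6.35). Along this order, Nr1d1 exceeded Per1, Clock exceeded Npas2 and Npas2 exceeded Per2 without overlap in 16 of 16 mice. The ranges of all other neighbours overlapped, and Nr1d2 was above Nr1d1 in only 9 of 16 mice.

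**Figure D1:**
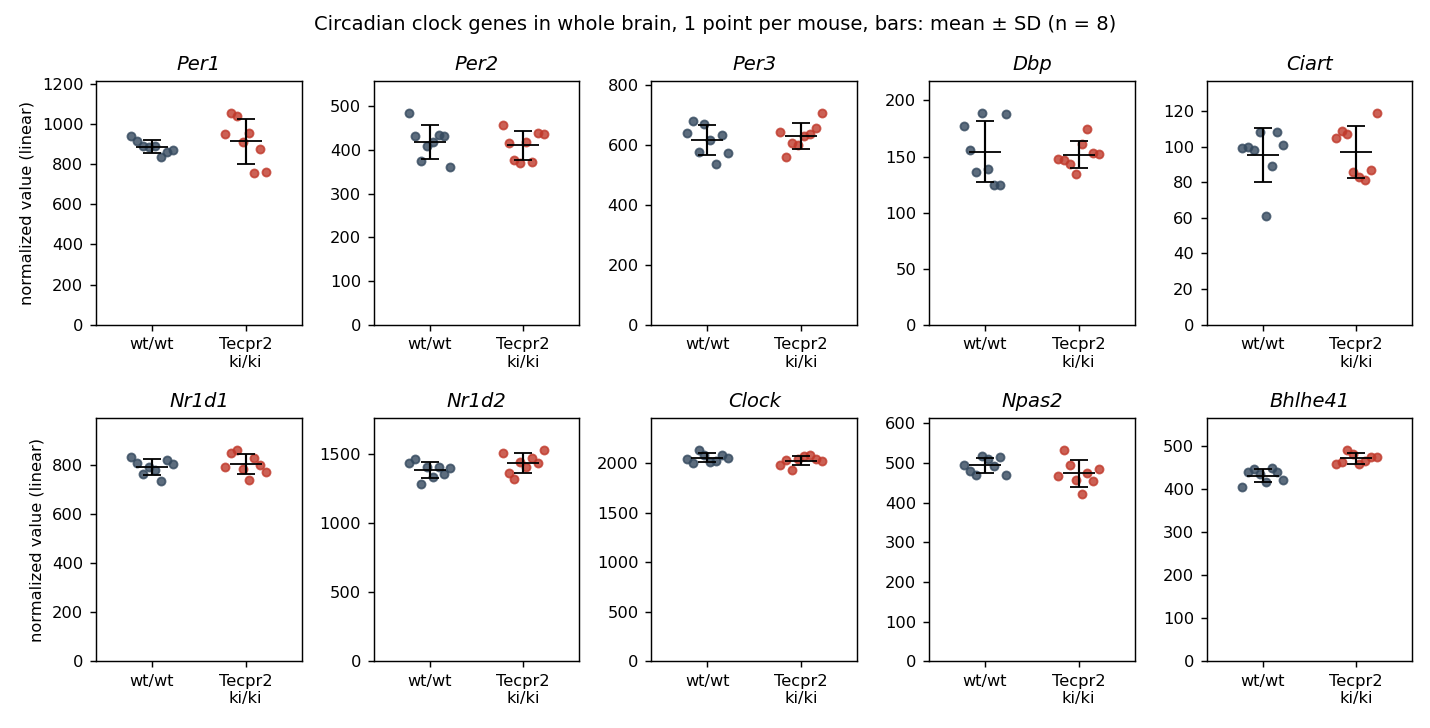
Normalized value (linear, from 0) of each of the 10 clock genes in every mouse, with the mean and SD of 8 wt/wt and 8 Tecpr2 ki/ki mice. The genotypes overlap in 9 genes, while the 8 Tecpr2 ki/ki mice lie above all wt/wt mice for Bhlhe41 (457 to 491 against 403 to 448).

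The first question was whether the genotypes differed. None of the 10 clock genes passed an adjusted p of 0.1 in limma, against 31 of the 23244 tested genes (0.133%). At an unadjusted p under 0.05, 1 of the 10 was counted by limma and 1 by the exact permutation test, where all tested genes gave 6.08% by limma and 6.13% by the exact test. This gene, Bhlhe41, also had an unadjusted p under 0.01, as did 1.56% of all tested genes (0.856% of them higher in Tecpr2 ki/ki mice). On the log2 scale, 6 of the 10 had a positive difference (Tecpr2 ki/ki minus wt/wt) and 4 a negative one, with a median of 0.024. Of all tested genes 49.5% were positive and 50.5% negative, with a median of -0.00098.

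Bhlhe41 encodes DEC2, a repressor that competes for E-boxes. Its values in Tecpr2 ki/ki mice 1 to 8 were 457, 463, 491, 481, 458, 465, 474 and 474. In wt/wt mice 1 to 8 they were 403, 440, 445, 434, 415, 448, 439 and 421. Every Tecpr2 ki/ki mouse thus lay above every wt/wt mouse, which 0.0645% of all tested genes did in this direction and 0.086% in either. The log2 difference was 0.13 (SE 0.038, limma unadjusted p = 0.00138), but the adjusted p in limma was 0.329. The exact two-sided permutation test gave p = 0.000155, the smallest possible for 8 against 8 mice. This p and the lack of overlap rest in part on a small spread within genotypes, given further below. Bhlhe41 is in the study's own list of genes selected on these mice, so that the list is no independent evidence of its direction. Beside it, the astrocyte sums given above did not overlap, and 3 of the 6 markers, Gfap, Aqp4 and Slc1a2, rose in the knock-in past an adjusted p of 0.1 in limma (0.133% of all tested genes). The other 3 did not pass, with log2 differences of 0.030 for Slc1a3, 0.041 for Aldh1l1 and -0.0048 for Gja1. The part of these cells in the Bhlhe41 difference was not tested.

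For the repressors of the Per family the genotypes overlapped widely. Per1 ranged from 757 to 1056 (median 930) in Tecpr2 ki/ki and from 837 to 942 (median 887) in wt/wt mice, a log2 difference of 0.033 (SE 0.066, adjusted p = 0.975 in limma). Per2 ranged from 371 to 456 (median 416.5) and from 361 to 485 (median 424.5), and differed by -0.026 (SE 0.050). Per3, the least needed of the family for rhythm, ranged from 558 to 707 (median 632.5) and from 535 to 679 (median 623.5), and differed by 0.036 (SE 0.044). No member of the family was beyond the spread between mice.

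Dbp, a PAR bZIP activator and a direct target of CLOCK and BMAL1, ranged from 134 to 175 (median 150) in Tecpr2 ki/ki and from 125 to 189 (median 147.5) in wt/wt mice. Its log2 difference of -0.011 had a 95% interval (1.96 SE) from -0.16 to 0.14. Ciart, a repressor also known as CHRONO, ranged from 81 to 119 (median 96) and from 61 to 108 (median 99.5), with an interval from -0.16 to 0.22. For these low and widely spread genes, differences within those bounds were not excluded with 8 mice per genotype.

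The nuclear receptors Nr1d1 and Nr1d2 were more tightly bounded. Nr1d1 ranged from 739 to 862 (median 795) in Tecpr2 ki/ki and from 733 to 830 (median 798) in wt/wt mice, and its difference had an interval from -0.045 to 0.084. Nr1d2 ranged from 1315 to 1531 (median 1436) and from 1279 to 1460 (median 1402), with a difference of 0.050 (SE 0.028) and an adjusted p of 0.875 in limma. Neither passed the test.

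Of the positive limb, Clock ranged from 1934 to 2090 (median 2040) in Tecpr2 ki/ki and from 2008 to 2141 (median 2049.5) in wt/wt mice. Its interval, from -0.063 to 0.024, was the narrowest of the 10. Npas2 ranged from 421 to 534 (median 471.5) and from 469 to 517 (median 494), and 4 of 8 Tecpr2 ki/ki mice lay below all wt/wt mice. Its difference of -0.061 (SE 0.040) had an adjusted p of 0.897 in limma.

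**Figure D2:**
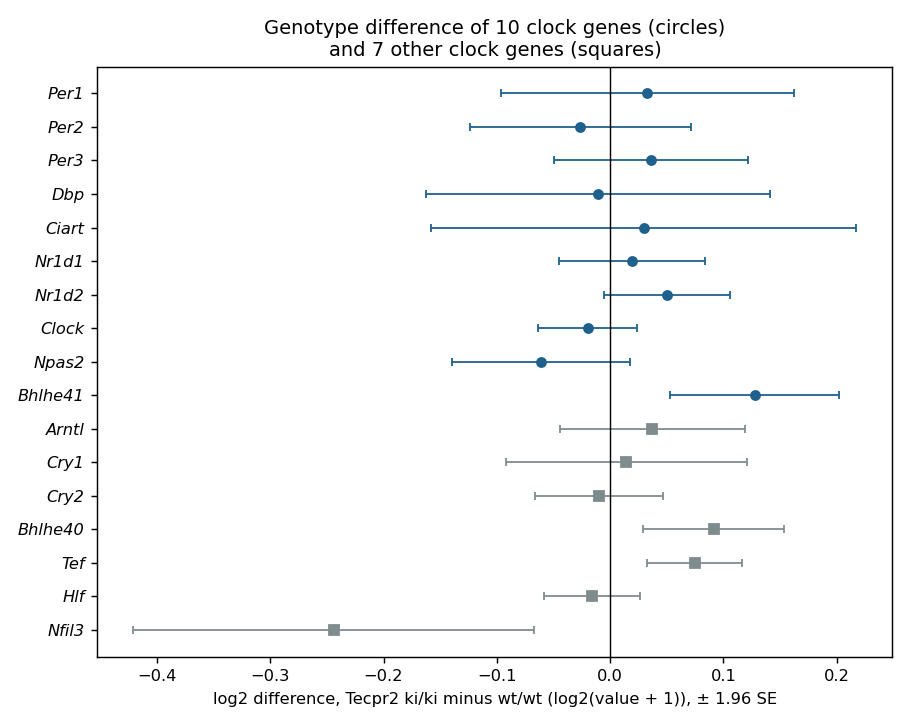
Log2 difference between Tecpr2 ki/ki and wt/wt mice on the log2(value + 1) scale for the 10 clock genes (circles) and 7 other clock genes (squares), with 1.96 SE on each side. The intervals of Bhlhe41 (0.13), Tef (0.075), Bhlhe40 (0.091) and Nfil3 (-0.24) do not include 0, and those of the other genes shown do.

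Another 21 genes of the clock, its kinases, ligases and outputs were looked at in the same fit, and 0 of 21 passed an adjusted p of 0.1 in limma. Of these, 7 had a positive and 14 a negative difference, with a median of -0.016. At an unadjusted p under 0.05, 4 of 21 were counted by limma and 5 of 21 by the exact permutation test (6.08% and 6.13% of all tested genes). Arntl, the partner of CLOCK, ranged from 452 to 493 (median 474) and from 403 to 505 (median 474) and differed by 0.037 (SE 0.042). The cryptochromes Cry1 and Cry2, repressors that act with the PER proteins, differed by 0.014 (SE 0.054) and -0.0099 (SE 0.029), and Hlf, a relative of Dbp, by -0.016 (SE 0.022).

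The 3 other clock genes with an unadjusted p under 0.01 in limma (1.56% of all tested genes) were Tef, Bhlhe40 and Nfil3. In the exact permutation test their p were 0.0039, 0.033 and 0.027, in this order. Tef, another relative of Dbp, ranged from 2586 to 2828 (median 2710.5) in Tecpr2 ki/ki and from 2445 to 2693 (median 2600.5) in wt/wt mice. It differed by 0.075 (SE 0.021, adjusted p = 0.266 in limma), with 5 of 8 Tecpr2 ki/ki mice above all wt/wt mice. Bhlhe40, which encodes DEC1, ranged from 970 to 1105 (median 1062) and from 909 to 1068 (median 973) and differed by 0.091 (SE 0.032, adjusted p = 0.531 in limma). Nfil3, a repressor that binds D-boxes in competition with DBP, ranged from 62 to 113 (median 84) and from 87 to 117 (median 98) and differed by -0.24 (SE 0.090, adjusted p = 0.612 in limma). Without trend and robust moderation the unadjusted p in limma was 0.0137 for Tef, 0.0382 for Bhlhe40 and 0.0228 for Nfil3, so that none of the 3 was under 0.01. Tef and Bhlhe40, like Bhlhe41, are in the study's own list of genes selected on these mice.

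The second question was how far single mice stood apart. The SD between mice of a genotype on the log2 scale was set against the SD that counting error alone would give at the estimated depth. Per1 had the largest excess, with an SD of 0.13 against 0.048, a ratio of 2.77, and its spread exceeded that of 99.3% of 4068 tested genes with a mean value between 0.5 and 2 times its own. Per3 had a ratio of 1.90 and Per2 one of 1.77, above 93.7% and 92.0% of genes of like mean. Dbp (ratio 1.66) and Ciart (1.62) lay above 90.2% and 90.1%. Nr1d2 (79.2%), Npas2 (53.2%) and Nr1d1 (53.0%) were closer to the middle. Clock, with a ratio of 1.05, lay above 9.41%. The SD of Bhlhe41 was below its counting SD (ratio 0.675) and lay above only 2.26% of genes of like mean.

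**Figure D3:**
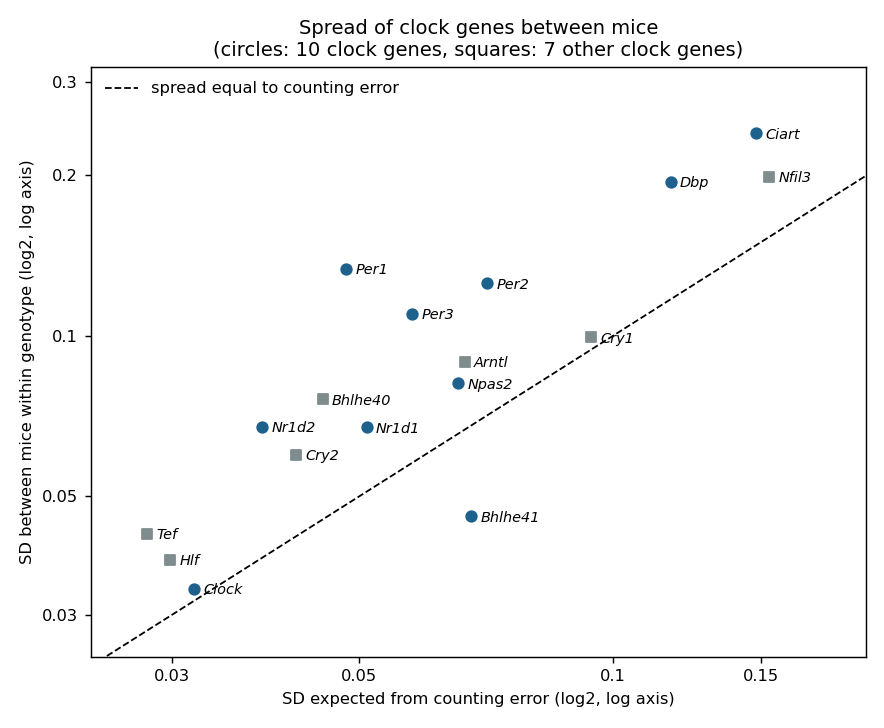
SD between mice within genotype against the SD from counting error alone (both log2, log axes) for the 10 clock genes (circles) and 7 other clock genes (squares), with the line of equality. Per1 stands farthest above the line (0.13 against 0.048), Clock lies close to it and Bhlhe41 below it.

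The spread of Per1 lay mostly in the Tecpr2 ki/ki mice, whose values from mouse 1 to mouse 8 were 948, 1056, 1042, 912, 954, 757, 874 and 762. In the wt/wt mice they were 942, 918, 890, 884, 890, 837, 863 and 871. Mice 6 and 8 were the low and mice 2 and 3 the high ones among Tecpr2 ki/ki, and the coefficient of variation was 12.3% there and 3.65% in wt/wt mice. For Dbp the wider genotype was wt/wt, where the values were 177, 156, 136, 189, 139, 125, 125 and 188. In Tecpr2 ki/ki mice they were 148, 147, 143, 134, 161, 175, 153 and 152. Mice 1, 4 and 8 were the high ones in wt/wt, and the coefficient of variation was 17.6% there and 8.10% in Tecpr2 ki/ki mice. Differences in spread between the genotypes were not tested.

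A further question was whether genes of like phase were high in the same mice and genes of opposite phase low in them. Correlations over the 16 mice, after subtraction of the genotype means, were computed for all 45 pairs of the 10 genes. Adjusted for the 45 pairs, 0 passed a p of 0.05 by Pearson's r or by Spearman's rho. Unadjusted, 2 had a permutation p under 0.05, where a share of about 0.05 is expected without any relation. The r ranged from -0.525 to 0.592 with a median of -0.0052, and 22 of 45 were positive. Of the 45 pairs, 2 had an r of at least 0.5 and 2 an r of at most -0.5, where the 10 genes reached these limits with 3.37% and 3.77% of all other genes of mean value at least 100.

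The highest r joined genes of opposite phase. Nr1d1 and Npas2 had r = 0.592 (permutation p = 0.0257, adjusted p = 0.756) and rho = 0.582 (permutation p = 0.0275), and r = 0.495 without the 2 mice farthest from the median of Nr1d1. Per3 and Nr1d2, which peak within the same part of the day, had r = 0.539 (permutation p = 0.0352, adjusted p = 0.756) and rho = 0.570 (permutation p = 0.0264), and r = 0.663 without the 2 farthest mice. The lowest r were those of Dbp with Bhlhe41 (-0.525, permutation p = 0.0764) and of Per1 with Nr1d2 (-0.509, permutation p = 0.0657), with rho of -0.496 and -0.333 and an adjusted p of 0.756 for both. Without the 2 farthest mice these r were -0.648 and -0.308, and without subtraction of the genotype means they were -0.317 and -0.421. Dbp had r = 0.169 with Clock and -0.140 with Npas2, and Per1 had r = 0.076 with Per2. A common order of the mice was not detectable at this number of animals.

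**Figure D4:**
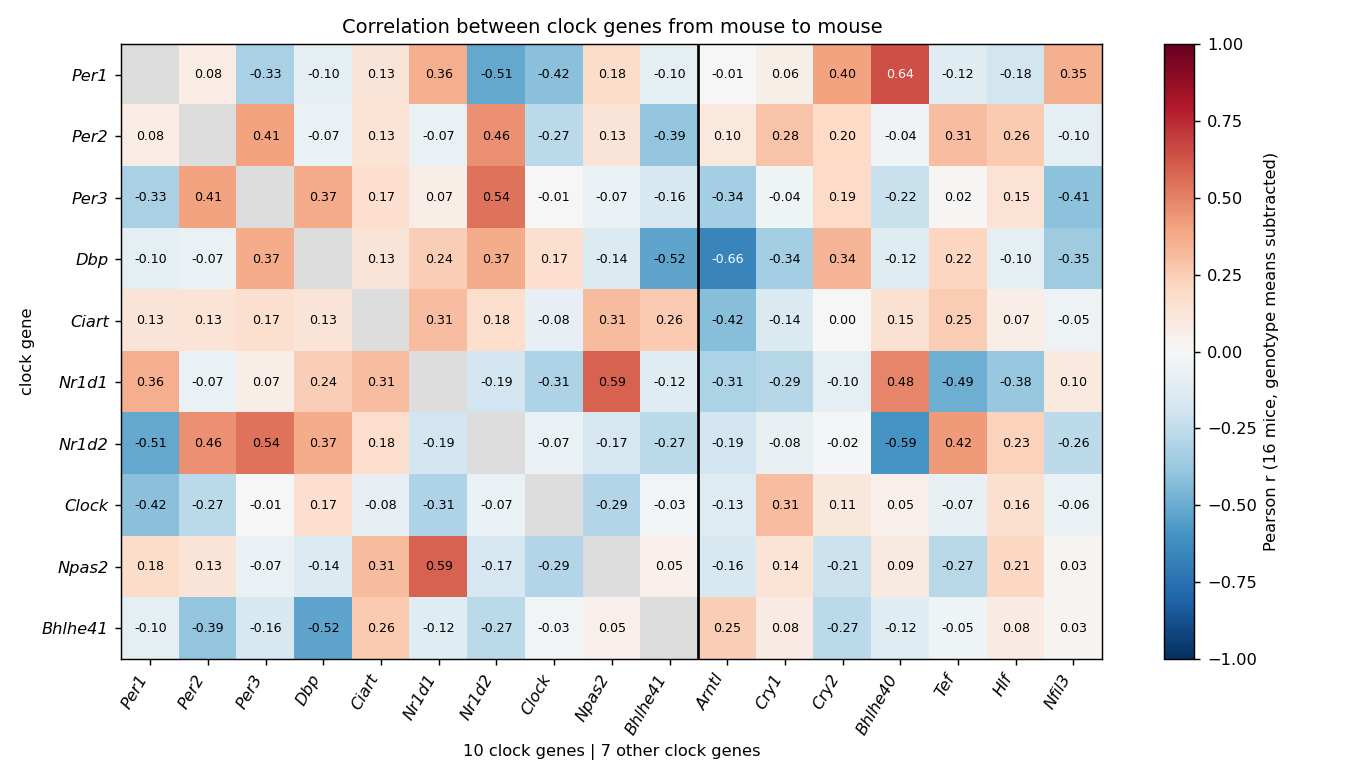
Pearson r over 16 mice, genotype means subtracted, between the 10 clock genes (rows) and the same genes and 7 other clock genes (columns), from -1 (blue) to 1 (red). Values are mixed in sign, from -0.525 to 0.592 among the 10 genes, and Dbp with Arntl is at -0.664.

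Among 210 pairs of the 10 genes with the 21 other clock genes, a family of tests added after the data had been seen, 0 passed an adjusted p of 0.05 by r or by rho and 11 had an unadjusted permutation p under 0.05. Without any relation, a share of about 0.05 of the pairs is expected under this threshold. One of the 11 was Dbp with Arntl, the textbook pair of opposite phase. It had r = -0.664 (permutation p = 0.0346, adjusted p = 0.854) and rho = -0.568 (permutation p = 0.0652), the 27th lowest r of Dbp among 11232 genes. Within wt/wt mice r was -0.831 (exact permutation p = 0.0183), and within Tecpr2 ki/ki mice it was 0.275 (exact permutation p = 0.520). Without wt/wt mice 4 and 8, the 2 farthest from the median of Dbp, r over the remaining mice was -0.381, so that its size depends on these mice. Leaving out 1 mouse at a time gave an r of -0.732 to -0.548. Arntl was 426, 487, 489, 403, 491, 505, 461 and 433 in wt/wt mice 1 to 8. The mice high in Dbp, numbers 1, 4 and 8, were thus the 3 lowest in Arntl. The same mice had Nr1d1 values of 830, 791 and 805 and Ciart values of 99, 108 and 101, where the wt/wt medians were 798 and 99.5.

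Per1 with Bhlhe40, in the same family, had r = 0.642 (permutation p = 0.00397, adjusted p = 0.531) and rho = 0.618 (permutation p = 0.0113). Without Tecpr2 ki/ki mice 6 and 8 this r was 0.396.

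**Figure D5:**
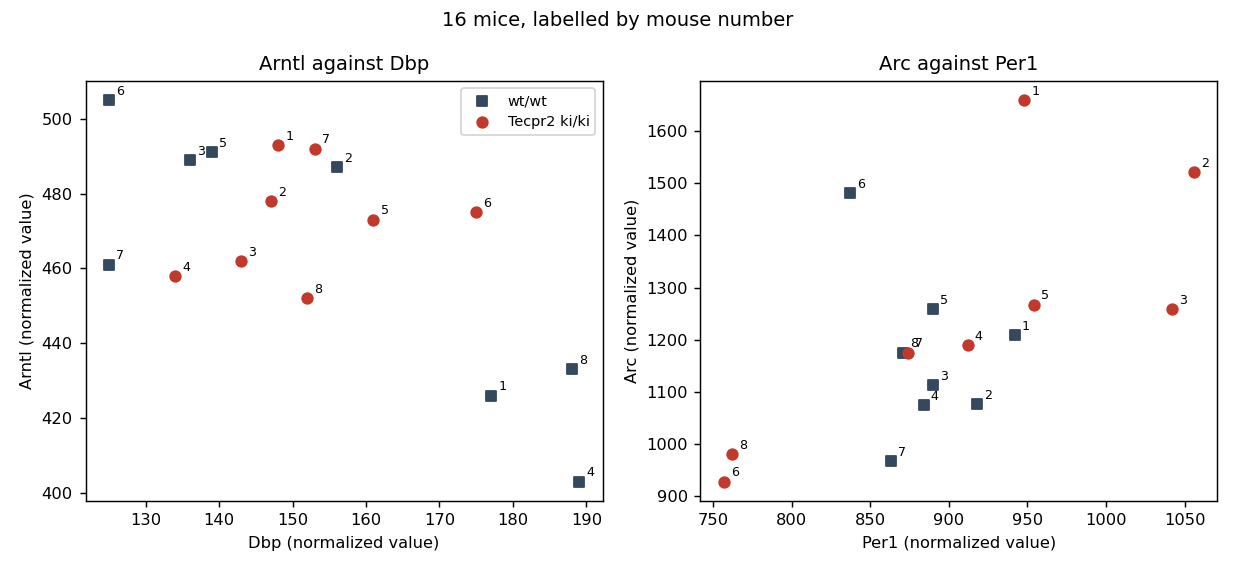
Arntl against Dbp and Arc against Per1 (normalized values), 1 point per mouse with its number, wt/wt as squares and Tecpr2 ki/ki as circles. The wt/wt mice 1, 4 and 8 have high Dbp and low Arntl, and the Tecpr2 ki/ki mice 6 and 8 have low Per1. Among wt/wt mice, mouse 6 has the lowest Per1 (837) and the highest Arc (1481).

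Clock genes also respond to stress hormone, neuronal activity and temperature, and 6 genes of these responses were set beside the 10 in 60 pairs, also added after the data had been seen. None of the 60 passed an adjusted p of 0.05 by r or by rho, and 5 had an unadjusted permutation p under 0.05. Unrelated pairs would fall under the unadjusted threshold at a share of about 0.05. Nr1d1 with Cirbp, a gene induced by cold, had the largest r (0.724, permutation p = 0.00175, adjusted p = 0.105, rho = 0.676). It was 0.780 within Tecpr2 ki/ki and 0.702 within wt/wt mice, and 0.632 without the 2 farthest mice. Per1 with Arc, an activity-regulated gene, had r = 0.618 (permutation p = 0.0324, adjusted p = 0.542, rho = 0.580), which was 0.158 without Tecpr2 ki/ki mice 6 and 8. Within wt/wt mice the 2 genes did not rise together, and mouse 6 there had the lowest Per1 (837) and the highest Arc (1481). Correlations of the 10 genes with the estimated depth factor of the library gave 0 of 10 past an adjusted p of 0.05 and 0 of 10 with an unadjusted permutation p under 0.05.

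Of the response lists themselves, 1 of 10 glucocorticoid targets passed an adjusted p of 0.1 in limma (0.133% of all tested genes). It was Plin4, a lipid droplet protein, higher in Tecpr2 ki/ki mice by 0.41 (SE 0.086, adjusted p = 0.0284 in limma). The list was chosen with earlier results of these data known, so that its share is no test of a glucocorticoid response. Fkbp5 ranged from 234 to 290 (median 275) in Tecpr2 ki/ki and from 217 to 266 (median 254.5) in wt/wt mice, and Sgk1 from 431 to 553 (median 523.5) and from 462 to 535 (median 495). None of 11 activity genes and none of 7 temperature genes passed an adjusted p of 0.1 or an unadjusted p of 0.05 in limma. Of all tested genes, 0.133% and 6.08% did. Fos ranged from 149 to 274 (median 220) and from 190 to 312 (median 237.5), and Rbm3 from 465 to 598 (median 544.5) and from 488 to 625 (median 551).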

How the data were processed

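The 16 whole brain libraries were grouped by genotype as labelled, 8 of each. According to the submitters' notes and the study's methods, reads were trimmed with Trim Galore 0.6.10 (cutadapt 3.4), aligned to GRCm39 with STAR 2.7.10b and counted per gene, and DESeq2 1.40.2 was used. The authors deposited 1 score for every gene in every mouse, a normalized value on a linear scale without decimals, and its normalization is not given in the sources used here. The table of all mice and the 16 single tables held identical values.

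A gene was tested if the sum of its values was over 16 and if 4 or more mice of either genotype had a value over 5. limma 3.58.1 in R 4.3.3 (trend and robust) was fitted to log2(value + 1), which understates changes of low genes, with Benjamini-Hochberg adjustment over 23244 genes. Single genes were compared by two-sided exact permutation over 12870 splits, and correlations by 100000 orders drawn within genotype (two-sided) or by all 40320 orders within 1 genotype. Python 3.11.15, numpy 2.4.6 and scipy 1.17.1 were used. Exon lengths came from GENCODE on GRCm38. Of 55404 genes, 52017 had a symbol. The factor of each library (0.772 to 1.28) was estimated from skipped and repeated low whole numbers, and depth from factor and total. It covers counting error only. The estimate of the library factor, the limma fit and the correlation test were tried on simulated data.

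The 10 genes, all lists and the rule for named genes were chosen with earlier results of these data known. Named were the 10 genes, 7 set clock genes and any other with an unadjusted p under 0.01, 6 response genes, Tecpr2, and the genes most like Dbp, Per1 and Npas2. Genes named beyond this were chosen after their values were seen: Plin4 and 3 astrocyte markers for their adjusted p, with the other astrocyte markers and the pituitary markers beside them. Alternatives covered the low-value filter, the pseudocount, scaling to equal totals, the moderation, the replicate block and each mouse left out.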

Additional observations from a re-analysis of the deposited data

Results flagged for a closer look

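Values were looked at for single mice far from the other 7 of their genotype, in 36 groups of 8 mice. Chance marks about 5% of such groups, and 2 of 36 were marked. Ciart was 61 in wt/wt mouse 5, where the next lowest mouse had 89, a gap of 0.596 of the whole range. Cry1 was 195 in wt/wt mouse 8, where the next lowest had 232, a gap of 0.685 of the range.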

How the results depend on the processing

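In every alternative, 0 of the 10 clock genes passed an adjusted p of 0.1 and 1 had an unadjusted p under 0.01 in limma. Bhlhe41 kept its direction throughout (0.11 to 0.14, adjusted p 0.213 to 0.585 in limma). Over tested genes of mean value at least 100, correlations of deviations between mice of 1 replicate number were -0.050 to 0.152. Of these, 2 of 8 correlated best with their own number. This check does not settle whether the numbers pair the mice, because it joins many genes. Pairing in single clock genes was not tested. With the number as a replicate block, 46 genes passed an adjusted p of 0.1 and Bhlhe41 had an adjusted p of 0.320 in limma. The unadjusted p of Per1 in limma was 0.362 with the block and 0.625 without the block. Of all tested genes, 31 passed, against 20 without the low-value filter and 16 without trend and robust moderation, and the cause was not tested. Leaving out each mouse in turn gave 25 to 40 genes.

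Of the other clock genes, leaving out 1 mouse at a time, Tef stayed under 0.01 in limma in 16 of 16 fits, Bhlhe40 in 8 (p up to 0.0228) and Nfil3 in 6 (p up to 0.0398), and Nfil3 had 0.0109 without the low-value filter.

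Signs turned only when 1 mouse was left out, for differences near 0. Dbp ran from -0.051 to 0.033, positive when mouse 3 or mouse 4 of Tecpr2 ki/ki was left out, and likewise mouse 1, 4 or 8 of wt/wt. Ciart ran from -0.059 (without wt/wt mouse 5) to 0.065, also negative without Tecpr2 ki/ki mouse 8. Per2 ran from -0.056 to 0.0051 (without wt/wt mouse 1). Cry1 ran from -0.023 (without wt/wt mouse 8) to 0.028, also negative without Tecpr2 ki/ki mouse 5. Cry2 ran from -0.025 to 0.0032 (without wt/wt mouse 4), also positive without Tecpr2 ki/ki mouse 8. Other small differences kept their sign but moved. Per1 was 0.0017 when Tecpr2 ki/ki mouse 2 was left out and 0.070 when mouse 6 was. Per3 was 0.0082 in the fit lacking wt/wt mouse 6 and 0.061 in that lacking Tecpr2 ki/ki mouse 2. Nr1d1 was 0.0035 in the fit lacking wt/wt mouse 6 and 0.036 in that lacking Tecpr2 ki/ki mouse 5. Arntl was 0.00998 when wt/wt mouse 4 was left out and 0.056 when mouse 6 was. Clock was -0.0099 when Tecpr2 ki/ki mouse 3 was left out and -0.026 when mouse 6 was, and Npas2 -0.086 and -0.037 when mice 2 and 5 were. No pair of clock genes passed an adjusted p of 0.05 in any alternative, and Dbp with Arntl ran from -0.732 to -0.548. The alternatives for the 210 pairs were added after the data had been seen. Counting error limits Ciart and Dbp most, with counting SDs of 0.15 and 0.12 on the log2 scale.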

Other observations

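The genes most like a clock gene from mouse to mouse were looked up among 11232 tested genes of mean value at least 100, by r over 16 mice with the genotype means subtracted, as a description. For Dbp the highest r were those of Dip2c (0.796), Xpo4 (0.784) and Eif4e (0.778), and the lowest those of Sertad2 (-0.799), Onecut2 (-0.763) and Ddx52 (-0.759). For Per1 they were Frmd6 (0.823), Ptpn1 (0.814) and Cyc1 (0.790), with r of 0.911, 0.928 and 0.907 within Tecpr2 ki/ki mice and of 0.270, -0.107 and 0.157 within wt/wt mice. For Npas2 they were Gm10557 (0.795), Gm3379 (0.784) and C4b (0.781). None of these 12 genes is one of the 31 clock genes looked at. All r are over the same 16 mice, and the highest of many r is high by selection.

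Of the marker lists, microglia sums were 1893 to 2020 in Tecpr2 ki/ki and 1739 to 1936 in wt/wt mice, with 0 of 6 genes past an adjusted p of 0.1 in limma and 3 of 6 with an unadjusted p under 0.05 (6.08% of all tested genes). Choroid plexus sums were 4055 to 4693 and 4563 to 5175, with 0 of 5 and 2 of 5. Neuron sums (34004 to 36682 and 34197 to 37757), oligodendrocyte sums (38797 to 44867 and 39079 to 44177), endothelial sums (1720 to 1860 and 1762 to 1866) and erythrocyte sums (239 to 372 and 176 to 343) overlapped.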
